A study of Saccharomyces cerevisiae with 26 samples.

Results

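The yeast Saccharomyces cerevisiae, grown on galactose in a chemostat, a vessel that holds growth steady by a constant feed, received a transient pulse of 2 g/l glucose. The comparison set 90, 120 and 150 min after that pulse (the late window, 3 arrays) against 15, 20, 30 and 45 min (the middle window, 4 arrays). These 7 arrays are among the 26 of the series and were chosen by the pulse and time in their labels. The others cover the same pulse early (3 to 10 min) and in a last window (180 to 240 min), and a pulse of 0.2 g/l on 12 arrays. The sources used here name neither strain nor genotype. Total RNA of each time was labelled with Cy5 and hybridised against Cy3-labelled RNA of t=0. The table does not state which channel is on top. The values were read as log2 of Cy5 over Cy3, the direction in which the galactose genes lie below t=0 after glucose, so higher and lower rest on a direction that is likely and not stated. The t=0 channel cancels in late minus middle where the same RNA was used. Each time stood on 1 array with no exchange of the dyes, and the labels name no replicate culture. The SD given below is therefore the spread between time points of 1 window, which true change inside a window widens. An SE or p-value rests on the spread around window means over all 26 arrays. That includes the early arrays and those after 0.2 g/l, so it can differ from the spread of the 7 arrays. It does not refer to repeated experiments.

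Yeast that meets glucose shuts off genes for other sugars and for respiration, a response called glucose repression, and turns on genes for making ribosomes. The galactose genes are driven by the activator Gal4, which the inhibitor Gal80 holds back until the sensor Gal3 binds galactose, and glucose silences them further. As glucose runs out, high-affinity hexose transporters and respiration are again in demand. Cells also tune iron uptake through the Aft1 and Aft2 regulators, which turn on reductases, permeases and siderophore transporters when iron is short and leave them off when it is plentiful.

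On the 7 arrays, 5430 to 5585 genes had a value, the column medians lay between -0.082 and 0.0, and the SD over genes lay between 0.46 and 0.869. Across genes, which are not independent replicates, the late arrays correlated with each other at r = 0.53 to 0.75 and the middle arrays at 0.73 to 0.86, and late arrays with middle arrays at 0.32 to 0.74. The array of 90 min stood apart for single genes: of the genes higher in the late window 12 had a value at 90 min that differed by over 1 from those at both 120 and 150 min, as did 2 of the lower ones. The same was not counted for 120 or 150 min, or over all genes. Across genes, the correlation with the mean of the other late arrays was 0.699 at 90 min, 0.813 at 120 min and 0.639 at 150 min.

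By 90 to 150 min, 186 genes had risen and 43 had fallen relative to 15 to 45 min. They were called by limma at a Benjamini-Hochberg adjusted p under 0.05 among 5372 genes tested, which is 4.26% of all genes (3.46% higher and 0.8% lower). With quantile normalization 156 were higher and 71 lower. The median late minus middle difference over all genes was 0.006 on the log2 scale. At an unadjusted p under 0.05, 648 of the 5372 genes were higher and 408 lower. Estimates were above 0 in 2714 genes and below 0 in 2658. Of the higher genes, 145 lay below their t=0 level in the middle window and above it in the late window, 34 were below it in both and 7 above it in both. In 134 of the 186 the late mean was closer to the t=0 level than the middle mean. The lower genes did not share this course: in 26 of 43 the late mean was further from t=0 than the middle mean. The late and middle arrays did not overlap in 184 of the higher and 41 of the lower genes, while over all 5162 genes with a value on the 7 arrays this held for 30.4%. Single arrays weighed on the counts, which were 110 higher and 24 lower without the array of 15 min, 75 and 20 without 20 min, 72 and 20 without 120 min, and 31 and 19 without 150 min. A minimum of 2-fold as well left 85 higher and 20 lower (1.95% of genes in all, 1.58% higher and 0.372% lower). With only the 7 arrays in the fit, 407 of 5568 genes were higher (7.31%) and 229 lower (4.11%), 11.4% in all, and 212 of the 229 calls were also made there. A set of 41 genes was called without each single array in turn, 27 of them higher and 14 lower.

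**Figure D1:**
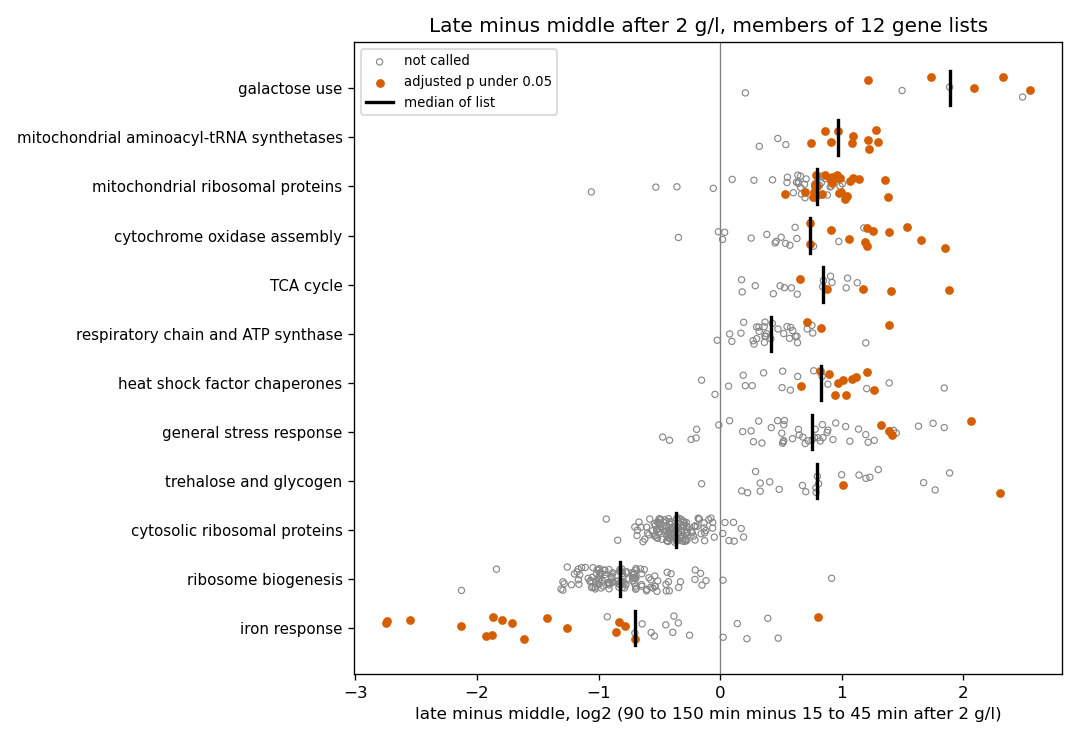
Late minus middle on the log2 scale (x axis, 90 to 150 min minus 15 to 45 min after 2 g/l) for each tested member of 12 gene lists, with filled points for genes at an adjusted p under 0.05, open points for the others and a bar at the median of the list. Galactose and mitochondrial lists lie right of 0 (median 1.89 for galactose use and 0.80 for mitochondrial ribosomal proteins), while ribosome biogenesis, with a median of -0.82, has no filled point and most filled points of the iron response lie left of 0. The lists of mitochondrial aminoacyl-tRNA synthetases and of cytochrome oxidase assembly were written after the values were seen.

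The genes of galactose use climbed back through the late window. Of 9 listed genes 5 were higher and 0 lower (55.6%, against 4.26% of all genes), 8 were higher at an unadjusted p under 0.05, and the median difference was 1.89. GAL7, for the uridylyltransferase of galactose breakdown, was at -2.17, -0.74 and 0.28 at 90, 120 and 150 min, against -3.27, -3.33, -3.37 and -3.73 at 15, 20, 30 and 45 min. Each late array was above each middle array, and the level of 150 min was near that of t=0. The fitted difference was 2.55 ± 0.68 (SE), a 5.85-fold rise, with adjusted p = 0.0352. GAL10, for the epimerase, was at -2.40, -1.20 and -0.02 late, against -3.53, -3.64, -3.38 and -3.61 in the middle window, a difference of 2.33 ± 0.57 (SE, adjusted p = 0.0225). GAL1, for galactokinase, was at -2.17, -0.72 and 0.14 late, against -2.26, -3.46, -3.05 and -3.25 in the middle window, and here the arrays of 90 and 15 min lay close together (2.09 ± 0.48, SE, adjusted p = 0.0139). GAL7, GAL10 and GAL1 are neighbours in the R64 gene order, in that order.

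The regulators of the pathway took different courses. GAL80 was back early: it was at 0.10, -0.13 and -0.28 late, against -1.46, -1.35, -1.42 and -1.07 in the middle window, a difference of 1.22 ± 0.24 (SE, adjusted p = 0.00542) that was called without each single array. GAL3, for the sensor, was at -1.33, -0.63 and 0.17 late, against -2.61, -2.35, -2.44 and -1.94 in the middle window (1.74 ± 0.48, SE, adjusted p = 0.0418). GAL4, for the activator, was at -0.54 ± 0.33 late (SD, n = 3) and -0.75 ± 0.24 in the middle window (SD, n = 4), and its arrays overlapped (limma adjusted p = 0.87). The permease gene GAL2 was at -2.98, -1.74 and 0.10 late, against -4.13, -3.86, -3.99 and -4.12 in the middle window, and did not pass the test (2.49 ± 0.78, SE, adjusted p = 0.0724). Neither did GCY1, for a glycerol dehydrogenase (1.50, adjusted p = 0.087), or PGM2, for phosphoglucomutase (1.89, adjusted p = 0.128), although their arrays did not overlap. In the last window the median level of the 9 genes was 0.26.

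GAL1, GAL3, GAL7 and GAL10 went up from array to array within the late window, and their calls leaned on single times. Without the array of 150 min, GAL1 (adjusted p = 0.157), GAL3 (0.308), GAL7 (0.275) and GAL10 (0.222) were not called, and without that of 120 min they were not called either (0.072, 0.133, 0.13 and 0.0851). Leaving out 20 min also ended the calls of GAL1 (0.0574), GAL3 (0.115), GAL7 (0.0871) and GAL10 (0.0682), leaving out 15 min those of GAL3 (0.114), GAL7 (0.0691) and GAL10 (0.0502), leaving out 30 min those of GAL3 (0.0828) and GAL7 (0.063), and leaving out 45 min that of GAL7 (0.0599). The count of members called was 1 without 120, 150 or 20 min, 2 without 15 min and 3 without 30 min.

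**Figure D2:**
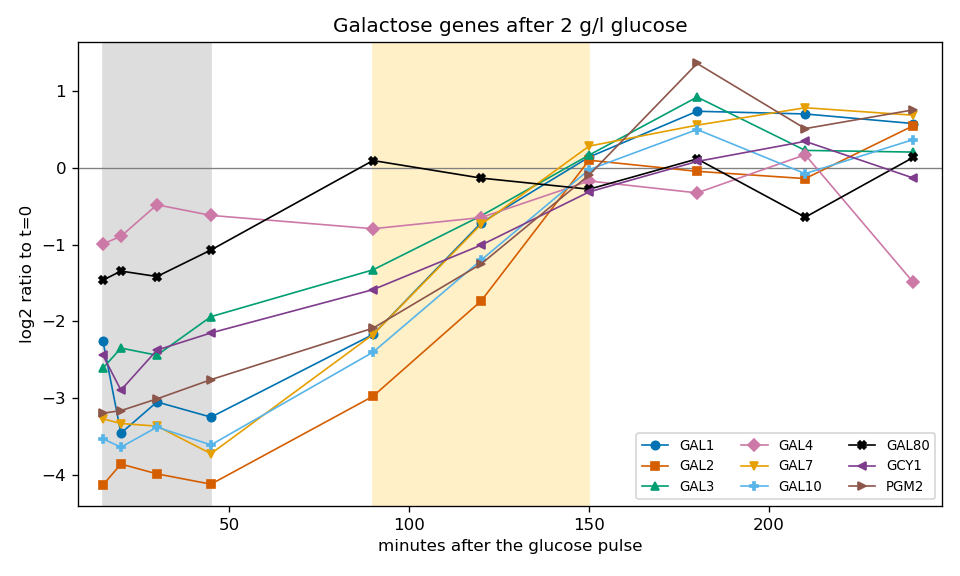
Log2 ratio to t=0 (y axis) against minutes after the 2 g/l pulse (x axis) for the 9 galactose genes, 1 array per point from 15 to 240 min; the grey band is the middle window and the yellow band the late window. GAL1, GAL7 and GAL10 lie between -2.40 and -2.17 at 90 min and between -0.02 and 0.28 at 150 min, while GAL80 is already at 0.10 at 90 min.

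Genes for taking up and phosphorylating hexoses held the highest differences of the comparison. HXK1, for a hexokinase that is known to be made on carbon sources other than glucose, was at 0.35, 2.23 and 3.46 late, against -2.25, -2.30, -2.05 and -1.02 in the middle window. This is a difference of 3.92 ± 0.90 (SE, 15.1-fold, adjusted p = 0.0144), and its call ended without 120 min (adjusted p = 0.0676) or without 150 min (0.143). HXT7, for a high-affinity transporter, was at 4.08, 4.76 and 5.34 late, against 0.95, 1.98, 1.73 and 1.98 in the middle window. Every late array thus stood over 2 units above every middle array, a difference of 3.07 ± 0.58 (SE, 8.37-fold, adjusted p = 0.00441) that was called without each single array. MTH1, which encodes a corepressor of the transporter genes that acts with Rgt1, was at 1.23, 1.93 and 2.27 late, against -0.90, -0.59, 0.08 and 0.50 in the middle window (2.04 ± 0.44, SE, adjusted p = 0.00891, but 0.0517 without 120 min and 0.0856 without 150 min).

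No transporter gene but HXT7 passed the test. Of 18 tested genes of hexose transport, 2 were higher (HXT7 and MTH1) and 0 lower, which is 11.1%, against 4.26% of all genes. Their median was 0.19, which turned to -0.12 with quantile normalization. HXT1, for the low-affinity transporter used at high glucose, was at 2.53, 1.52 and 1.38 late, against 4.53, 4.05, 3.16 and 2.97 in the middle window, without overlap but also without passing the test (-1.87 ± 0.84, SE, adjusted p = 0.218). HXT2 stayed at 3.36 to 4.29 late, against 3.83 to 4.55 in the middle window, and HXT4 at 2.98 to 3.47, against 2.99 to 3.62. HXT13 stood at -4.13 at 90 min and at -1.17 and 0.05 on the other late arrays. HXT3, HXT6 and HXT14 were not tested because they had under 2 values in some window of the series, although HXT3 and HXT6 had a value on all 7 arrays. HXT6 is nearly identical to HXT7 in sequence, and whether their signals are shared was not tested. The spot named for HXT6 read -2.64, -1.02 and -0.88 late, against -2.43, -3.72, -2.24 and -0.93 in the middle window. HXT6 thus lay below t=0 on each of the 7 arrays, while HXT7 lay above it on each. Which gene the signal named for HXT7 or for HXT6 reports was not tested. RGT2, for a glucose sensor, had spots that differed by a median of 0.52 and was not called (adjusted p = 0.63).

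**Figure D3:**
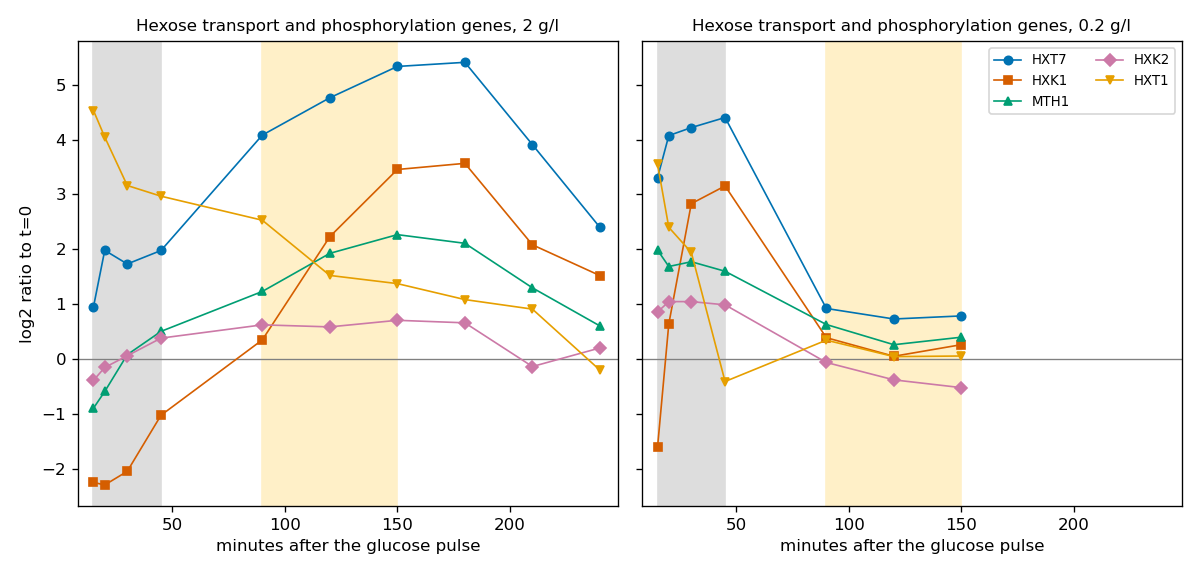
Log2 ratio to t=0 (y axis) against minutes after the pulse (x axis) for HXT7, HXK1, MTH1, HXK2 and HXT1, after 2 g/l (left) and 0.2 g/l (right), 1 array per point; the grey band is the middle and the yellow band the late window. After 2 g/l HXT7 is at 4.08 to 5.34 late and 0.95 to 1.98 in the middle window, while after 0.2 g/l it is at 0.73 to 0.92 late and 3.31 to 4.40 in the middle window.

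Members of the iron response list made up 16 of the 43 genes that fell, most of them genes for iron uptake. Of 33 tested members these 16 were lower and 1 was higher (51.5%, against 4.26% of all genes), with a median of -0.70, and 12 to 18 were lower when 1 of the 7 arrays was left out. FIT2, for a cell wall mannoprotein that retains siderophore iron, was at -4.26, -4.66 and -3.74 late, against -0.65, -1.24, -1.57 and -2.45 in the middle window. It had begun to sink before 45 min, and all late arrays lay below all middle arrays (-2.74 ± 0.37, SE, 6.7-fold lower, adjusted p = 0.000166). FIT3, for another of these mannoproteins, was at -1.96, -3.08 and -3.11 late, against -0.28, -0.48, -0.76 and -0.83 in the middle window (-2.13 ± 0.23, SE, adjusted p = 9.29e-06). FIT1, the remaining member of that family, was at -0.09 ± 0.56 late (SD, n = 3) and 0.56 ± 0.65 in the middle window (SD, n = 4) and was not called by limma (adjusted p = 0.577).

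Genes of both routes of iron entry fell. On the reductive route, FRE1, for the surface ferric reductase, was at -2.36, -2.77 and -2.34 late, against 0.63, 0.45, 0.22 and -0.30 in the middle window (-2.74 ± 0.37, SE, adjusted p = 0.000153). FET3, for the multicopper oxidase, was at -2.04, -2.34 and -1.96 late, against -0.12, 0.08, -0.17 and -0.78 in the middle window (-1.87 ± 0.20, SE, adjusted p = 9.29e-06). FTR1, for the permease that works with Fet3, was at -1.89, -1.32 and -1.45 late, against 0.24, 0.23, 0.08 and 0.42 in the middle window (-1.79 ± 0.23, SE). These 3 genes were near their t=0 level through most of the middle window and well below it on each late array. On the siderophore route, ENB1, for the enterobactin transporter, was at -2.53, -2.91 and -2.20 late, against 0.34, 0.47, -0.09 and -0.71 in the middle window (-2.55 ± 0.26, SE, adjusted p = 9.29e-06). SIT1, for the ferrioxamine transporter, differed by -1.93 and ARN1, for the ferrichrome transporter, by -1.71, whereas ARN2, for another siderophore transporter, was at -0.70 late and -0.73 in the middle window (difference 0.03). TIS11, for a protein that destabilises mRNAs of iron-using enzymes when iron is low, was at -2.41, -2.67 and -1.51 late, against -0.30, -0.20, -0.62 and -1.22 in the middle window (-1.61 ± 0.25, SE, adjusted p = 0.000807). FIT2, FIT3, FRE1, FET3, FTR1, ENB1, SIT1, ARN1 and TIS11 were called without each single array.

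Of the further reductase genes, FRE3 (-1.88), FRE2 (-1.26) and FRE6 (-0.83) were lower and called without each single array. FRE5 (-1.42, adjusted p = 0.0163) was not called without 20 min (0.0723), 90 min (0.0694) or 120 min (0.0674). SMF3, for a vacuolar iron transporter, fell by 0.70 on the log2 scale (adjusted p = 0.0114, but 0.089 without 120 min). ISU2, for a scaffold of iron-sulfur cluster assembly (-0.85), was not called without any 1 of the arrays but that of 45 min (adjusted p 0.0514 to 0.179), and AKR1, for a palmitoyl transferase (-0.78), lost its call without 15, 20, 30, 90 or 120 min (0.0913 to 0.209). The 1 member that rose was BIO5, for the transporter of a biotin precursor, at 1.42, 1.20 and 1.25 late, against 0.39, 0.51, 0.38 and 0.66 in the middle window (0.80 ± 0.20, SE, adjusted p = 0.0269, but 0.063 to 0.105 without any 1 array except that of 45 min). CCC2, for the copper ATPase that supplies Fet3 (-0.93, adjusted p = 0.0694), and HMX1, for heme oxygenase (-0.70, adjusted p = 0.107), did not pass. The genes of the regulators themselves were not called, with AFT1 at a difference of 0.14 (its spots differed by a median of 0.72) and AFT2 at -0.39.

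The fall was partly undone later. The median level of the iron response list was -1.06 at 90 min and -1.03 at 120 min, the lowest of the 14 arrays after 2 g/l, and -0.23 at 240 min. In the last window FIT2 was at -1.84, -0.44 and -0.64 at 180, 210 and 240 min, FRE1 at -1.92, -0.75 and -0.34, and FIT3 at -1.98, -1.63 and -1.22. In the R64 gene order FIT2, FIT3 and FRE5 are neighbours. CRR1, for a putative glycosidase of the spore wall that is in no list, is the neighbour of FRE1 and was at -1.84, -1.82 and -1.67 late, against -0.14, -0.08, -0.21 and -0.53 in the middle window (-1.54 ± 0.17, SE, adjusted p = 1.82e-05). CDC123, the neighbour of FRE1 on its other side, for an assembly factor of translation initiation factor eIF2, was also lower (-0.69, adjusted p = 0.0309, but 0.0789 to 0.104 without 15, 20, 90, 120 or 150 min). It was picked for its place beside FRE1 after its values were seen.

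**Figure D4:**
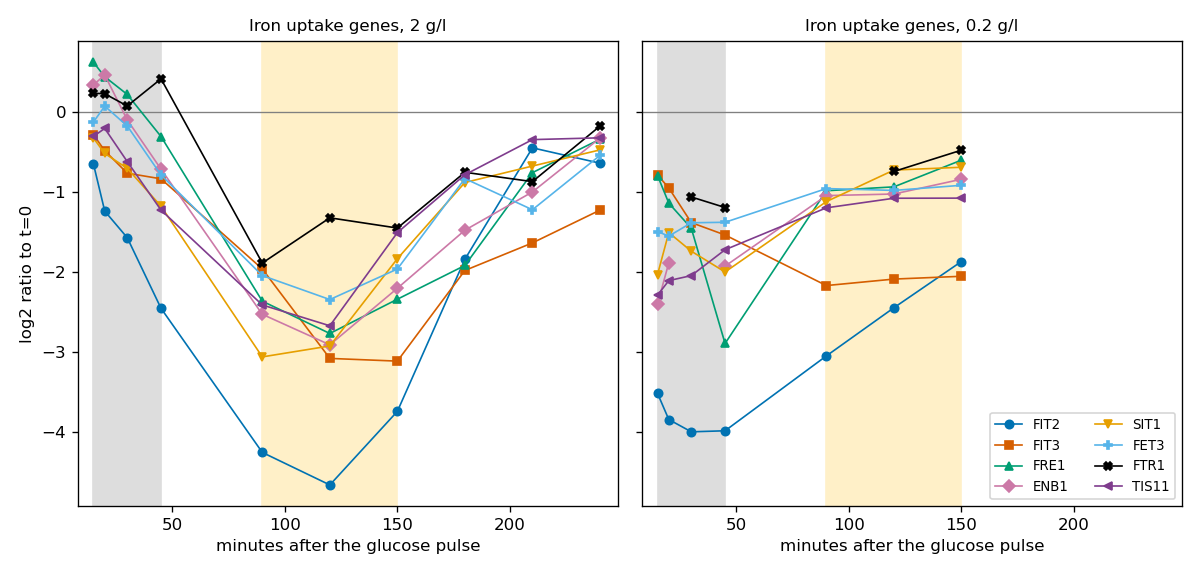
Log2 ratio to t=0 (y axis) against minutes after the pulse (x axis) for 8 genes of iron uptake, after 2 g/l (left) and 0.2 g/l (right), 1 array per point, with lines broken where an array had no value; the grey band is the middle and the yellow band the late window. After 2 g/l FIT2 is at -3.74 to -4.66 late and -0.65 to -2.45 in the middle window, while after 0.2 g/l it is at -1.87 to -3.05 late and -3.52 to -4.00 in the middle window.

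Genes for building mitochondria rose in number, led by those of the mitochondrial translation apparatus. Of the 186 higher genes, 86 were among the 258 tested genes of 10 mitochondrial lists, as was 1 of the 43 lower ones. Because 7 of these 10 lists were written after the values were seen, that count is a description only. The other 3 (mitochondrial ribosomal proteins, TCA cycle, respiratory chain and ATP synthase) held 36 of the higher and 0 of the lower genes among 117 tested. These 3 lists, too, were chosen with earlier results of these data known, so their counts are also descriptions. Among all 5372 genes tested 3.46% were higher and 0.8% lower. Of 62 genes for mitochondrial ribosomal proteins 28 were higher and 0 lower (45.2%, against 3.46% higher among all genes), with 50 higher and 1 lower at an unadjusted p under 0.05 and a median of 0.80. MRPL40, for a protein of the large subunit, was at 0.17, 0.50 and 0.63 late, against -0.67, -0.67, -0.63 and -0.68 in the middle window (1.10 ± 0.20, SE, adjusted p = 0.00405). Its middle arrays lay within 0.05 of each other, and it was called without each single array. MRPL39 (1.38, but adjusted p = 0.0506 without 150 min) and MRPL37 (1.14, but 0.0716 without 150 min) were also higher. MRP7, with 1.36, read 2.53 at 90 min and 0.64 and 0.88 later in the window, against -0.24 to 0.24 in the middle window. The 90 min array stood apart the other way for MRPL49 (-3.75, with 0.54 and 0.62 on the other late arrays) and RML2 (-2.67, with 0.74 and 0.99), and neither was called. MRP20 ran against the list, at 0.05 ± 0.10 late (SD, n = 3) and 1.11 ± 0.42 in the middle window (SD, n = 4, limma adjusted p = 0.0823). Leaving out 20 min gave a count of 18, leaving out 120 min 16 and leaving out 150 min 7.

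The mitochondrial lists that follow in this paragraph were written after the values were seen, so their counts are descriptions of genes picked with the data in view. Among all genes 3.46% were higher. Of 13 mitochondrial aminoacyl-tRNA synthetases, which charge the tRNAs of the organelle, 10 were higher, with a median of 0.97, and the count was 6 without 20 or 120 min and 1 without 150 min. MSK1, for the lysine enzyme, was at -0.36, 0.09 and 0.05 late, against -1.47, -1.16, -1.46 and -1.39 in the middle window (1.30 ± 0.26, SE, adjusted p = 0.00624, but 0.0506 without 150 min). Of 15 translation factors 6 were higher, and of these MEF1, for an elongation factor, was at 0.10, 0.58 and 1.04 late, against -0.76, -0.99, -0.89 and -0.72 in the middle window (1.41 ± 0.24, SE, adjusted p = 0.00144, called without each single array). That list had 3 calls without 20 or 90 min, 2 without 120 min and 1 without 150 min. Of 28 assembly factors of cytochrome oxidase 12 were higher, with a median of 0.74. The count fell to 6 without 15 or 30 min, 5 without 120 min, 4 without 20 min and 3 without 150 min. COX17, for the chaperone that brings copper to the enzyme, was at 0.39, 0.42 and 0.48 late, against -0.95, -2.28, -1.28 and -1.16 in the middle window (1.85 ± 0.33, SE, adjusted p = 0.0029), and COX23 (1.39) and SCO1 (1.19), also tied to copper in the mitochondrion, rose too. All 3 were called without each single array. COX11 (1.65) read 2.17 at 90 min and 0.17 and 0.34 later in the window, and it was not called without 90 min (adjusted p = 0.206), 15 min (0.104), 20 min (0.138), 30 min (0.091) or 150 min (0.0802).

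Assembly factors of the other respiratory complexes had 7 of 16 higher, among them CBP4, for cytochrome bc1 assembly (1.62), and ATP11, for a chaperone of the ATP synthase (1.14). Both were called without each single array, while the list had 4 calls without 30 min and 2 without 20, 120 or 150 min. Protein import had 9 of 37 higher, with TOM5, for a small subunit of the outer membrane translocase, at 0.41, 0.50 and 1.06 late, against -0.38, -0.84, -0.47 and -0.05 in the middle window (1.09 ± 0.20, SE, adjusted p = 0.00359). The import count was 5 without 15 or 30 min, 2 without 20 or 150 min and 1 without 120 min. Ubiquinone and heme synthesis had 4 of 17 higher, including HEM15, for ferrochelatase (1.11), and COQ3, for a methyltransferase of ubiquinone synthesis (1.05). Both calls ended when 20 min was left out (adjusted p = 0.0819 for HEM15 and 0.0556 for COQ3), likewise 120 min (0.0851 and 0.0577) or 150 min (0.124 and 0.135), and HEM15 without 15 min (0.0737), and the list had 2 calls without 15 or 30 min and 0 without 20, 120 or 150 min. Iron-sulfur cluster assembly had 2 of 16 higher and 1 lower, which was ISU2, with a median of 0.25. Its higher count was 1 without 150 min, and its lower count was 0 without any 1 array but that of 45 min. These lists, too, were written after the values were seen, and 3.46% of all genes were higher.

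Calls among the enzymes that feed and carry out respiration were all higher. Of 20 genes of the TCA cycle 5 were higher and 0 lower (25%, against 4.26% of all genes). All 20 estimates were above 0, and the median was 0.85. SDH1, for the flavoprotein of succinate dehydrogenase, was at -0.05, 0.05 and 0.24 late, against -2.33, -2.37, -1.34 and -1.18 in the middle window (1.88 ± 0.50, SE, adjusted p = 0.0331). The late arrays were near t=0 and the middle arrays far below it, but the call was lost without 15, 20, 90, 120 or 150 min (adjusted p 0.0608 to 0.158). ACO1, for aconitase, was at 0.14 ± 0.15 late (SD, n = 3) and -1.27 ± 0.41 in the middle window (SD, n = 4), with an adjusted p of 0.00988 by limma that was 0.0762 without 150 min. The TCA count was 2 without 30 min, 1 without 15, 20, 90 or 120 min and 0 without 150 min. Of 35 subunits of the respiratory chain and ATP synthase 3 were higher and 0 lower (8.57%, against 4.26% of all genes), with a median of 0.42. CYC1, for cytochrome c, was at 0.39, 0.82 and 1.16 late, against -0.84, -1.07, -0.32 and -0.16 in the middle window (1.39 ± 0.29, SE, adjusted p = 0.0075, but 0.0789 without 150 min). The chain's count was 2 without 90 or 120 min, 1 without 15 or 20 min and 0 without 150 min. HAP4, for the activating subunit of the regulator of respiration genes, was at -0.28, -0.03 and 0.65 late, against -0.93, -0.72, -0.72 and -0.65 in the middle window (0.87 ± 0.20, SE, adjusted p = 0.0162, but 0.0504 without 15 min and 0.176 without 150 min). Genes of gluconeogenesis and the glyoxylate cycle, which serve growth on compounds of 2 or 3 carbons, had 0 of 24 called by limma, 5 at an unadjusted p under 0.05 and a median of 0.36, which turned to -0.20 with quantile normalization.

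**Figure D5:**
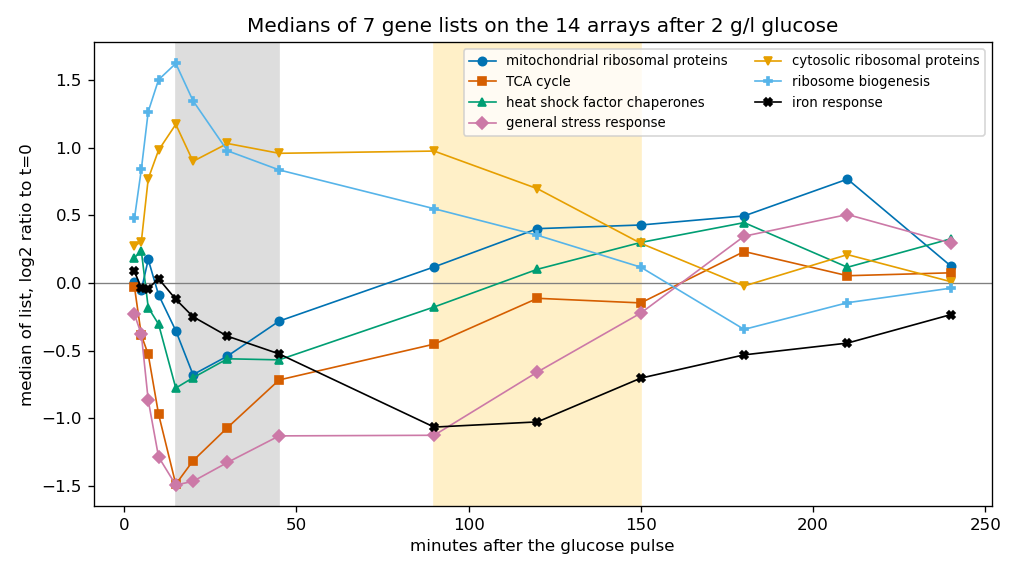
Median log2 ratio to t=0 of the tested members of 7 gene lists (y axis) against minutes after the 2 g/l pulse (x axis), 1 array per point from 3 to 240 min; the grey band is the middle and the yellow band the late window. The median of ribosome biogenesis goes down step by step across both windows, while that of the mitochondrial ribosomal proteins is above 0 on each late array and below 0 on each middle array.

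Among chaperone genes under the heat shock factor 11 rose, including helpers of folding that cells keep at all times. These were 39.3% of the 28 tested, against 3.46% higher among all genes, with 0 lower and a median of 0.83. HSC82, for the constitutive form of Hsp90, was at 0.31, 0.50 and 0.49 late, against -0.47, -0.83, -0.44 and -0.41 in the middle window (0.97 ± 0.19, SE, adjusted p = 0.00624, called without each single array). HSP82, for the inducible form, differed by 1.26 (adjusted p = 0.022, but 0.0617 to 0.174 without 15, 20, 120 or 150 min), and because the sequences of both are nearly identical their signals may be shared. HSP60, for the mitochondrial chaperonin, was at -0.43, 0.09 and 0.30 late, against -0.99, -1.32, -1.20 and -1.01 in the middle window (1.12 ± 0.22, SE, adjusted p = 0.00563, but 0.0575 without 150 min). AHA1, for an activator of Hsp90, was measured on 2 of the 3 late arrays (1.21, adjusted p = 0.00835, but 0.0764 without 120 min and 0.0939 without 150 min). The chaperone count was 5 without 15 min, 4 without 20 or 120 min and 2 without 150 min. Mitochondrial members of this list, such as HSP60 and SSC1, also belong to the genes described above.

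General stress genes, whose products guard resting cells and which glucose turns down, had a count that depended on the fit. Of 53 tested 4 were higher and 0 lower (7.55%, against 4.26% of all genes). With only the 7 arrays in the fit 21 were higher, where 7.31% of all genes were. At an unadjusted p under 0.05, 29 were higher (all genes: 648 of 5372), and the median was 0.76. MPC3, for the subunit of the mitochondrial pyruvate carrier used in respiring cells, was at -1.24, -0.62 and -0.38 late, against -3.20, -2.96, -2.79 and -2.29 in the middle window (2.07 ± 0.43, SE, adjusted p = 0.0075, but 0.0696 without 150 min). HOR7 (1.32, but adjusted p = 0.0575 without 150 min), TMA10 (1.42) and PRX1, for the mitochondrial peroxiredoxin (1.39), were the others. TMA10 was not called without 15, 20, 120 or 150 min (0.0629 to 0.155), nor was PRX1 without these or 30 min (0.0555 to 0.251). The stress count was 2 without 20 or 120 min and 0 without 150 min. Of 24 genes of trehalose and glycogen, the storage carbohydrates, 2 were higher (8.33%, against 3.46% higher among all genes) and the median was 0.80. With only the 7 arrays in the fit 10 were higher. GSY1, for glycogen synthase, was at -0.11, 0.21 and 0.93 late, against -2.46, -2.09, -1.86 and -1.42 in the middle window (2.30 ± 0.60, SE, adjusted p = 0.0329), and TPS3, for a regulatory subunit of trehalose synthase, was also higher (1.01). Both lost their calls without 15, 20, 120 or 150 min (GSY1 0.0935 to 0.203 and TPS3 0.106 to 0.267), GSY1 without 30 min (0.0607) and TPS3 without 45 min (0.0522) as well. PBI2, for an inhibitor of a vacuolar proteinase, was among the highest with 2.15, but it read 3.42 at 90 min and -0.40 and -0.49 later in the window, against -2.15 to -0.53 in the middle window, and was not called without 90 min (adjusted p = 0.166), 20 min (0.146), 30 min (0.0846) or 45 min (0.0522). Of 31 oxidative stress enzymes 6 were higher and 0 lower (19.4%, against 4.26% of all genes). TSA1, for the main cytosolic peroxiredoxin, was at 0.11, -0.01 and 0.09 late, against -0.95, -1.04, -0.68 and -0.73 in the middle window (0.91 ± 0.18, SE, adjusted p = 0.00624, called without each single array). The oxidative stress count was 2 without 20 or 120 min and 1 without 150 min.

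Genes for making cytosolic ribosomes had estimates below 0 across nearly the whole list, with no gene called. Of 126 ribosome biogenesis genes limma called 0, while 124 had an estimate below 0, 70 were lower and 1 higher at an unadjusted p under 0.05, and the median was -0.82 (0.006 over all genes), or -0.54 with quantile normalization. The median level of the list was 0.55, 0.35 and 0.12 at 90, 120 and 150 min, against 1.62, 1.35, 0.98 and 0.84 at 15, 20, 30 and 45 min. It thus went down from array to array through both windows. With only the 7 arrays in the fit 57 members were lower and 1 higher, where 4.11% of all genes were lower and 7.31% higher. With quantile normalization 2 were lower and 0 higher (all genes: 71 lower and 156 higher). DBP2, for an RNA helicase, was at 0.44, -0.11 and -0.81 late, against 2.90, 2.44, 1.22 and 1.30 in the middle window (-2.13 ± 0.86, SE, adjusted p = 0.163). NSR1, for the yeast nucleolin, was at 1.04 and 0.30 on the 2 late arrays that had a value, against 3.41, 3.08, 1.93 and 1.62 in the middle window (-1.84, adjusted p = 0.16). Of the cytosolic ribosomal proteins 131 genes were tested and limma called 0. Of their estimates 124 were below 0 (all genes: 2658 of 5372). At an unadjusted p under 0.05, 15 were lower (all genes: 408 of 5372), and the median was -0.36. That median was -0.11 with quantile normalization and -0.53 to -0.18 without single arrays. Their median level was 0.98, 0.70 and 0.29 late, against 1.17, 0.90, 1.03 and 0.96 in the middle window, so that the array of 90 min lay among the middle ones. RNA polymerases I and III (38 genes, median -0.51) and purine and one-carbon metabolism (35 genes, median -0.49) likewise had 0 calls by limma, with 15 and 10 members lower at an unadjusted p under 0.05. With only the 7 arrays in the fit 6 and 7 were lower, where 4.11% of all genes were, and with quantile normalization the medians were -0.36 and -0.16.

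Further lists held a few calls each, where 4.26% of all genes were called (3.46% higher and 0.8% lower). INO1, for inositol phosphate synthase, was at 0.96, 1.98 and 2.36 late, against 0.02, -0.31, -0.29 and -0.25 in the middle window (1.97 ± 0.40, SE, adjusted p = 0.00711, but 0.0728 without 150 min). OPI3, for a methyltransferase of phosphatidylcholine synthesis, was at 1.76, 1.29 and 1.37 late, against 0.35, 0.06, 0.26 and 0.69 in the middle window (1.13 ± 0.24, SE, adjusted p = 0.00851, called without each single array). With CKI1, for choline kinase (0.92), they were the 3 higher of 17 genes of fatty acid and lipid synthesis, and OLE1, for the fatty acid desaturase (-0.64), was the 1 lower. CKI1 was not called without 15, 20, 45, 120 or 150 min (0.0596 to 0.21), and OLE1 without any 1 of the 7 arrays (0.05 to 0.21). Of 21 genes of the M to G1 phase DSE1 (-0.80, adjusted p = 0.0075, but 0.0707 without 150 min) and DSE2 (-0.73, adjusted p = 0.0434) were lower, both known as genes expressed in daughter cells after division. DSE2 was not called without 15, 20, 30, 45, 120 or 150 min (0.0501 to 0.248). Of 11 exporters of polyamines and organic acids, a list written after the values were seen, 3 were lower: PDR12, for the exporter of weak acids, was at 0.41, 0.04 and -0.38 late, against 1.35, 1.64, 1.33 and 0.76 in the middle window (-1.25 ± 0.26, SE, adjusted p = 0.00745, but 0.0772 without 150 min), and the polyamine exporters TPO2 (-1.19) and TPO3 (-1.15) lost their calls without 15, 20, 30, 120 or 150 min (0.0786 to 0.235 for TPO2 and 0.0607 to 0.18 for TPO3). Limma called 0 members of the lists for amino acid biosynthesis (65 genes, 0 higher and 5 lower at an unadjusted p under 0.05), histones (10 genes, 1 and 0), and peroxisome and fatty acid oxidation (37 genes, 5 and 0). Among all 5372 genes 648 were higher and 408 lower at that p.

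Whether late minus middle itself differed with the dose was tested against the windows of the same times after 0.2 g/l. The middle arrays after 0.2 g/l were unlike each other. Across genes, their correlation with the mean of the others in the window was 0.586, 0.704, 0.365 and 0.123 at 15, 20, 30 and 45 min. Between 2.25% and 8.95% of genes had no value on these arrays. The labels do not say whether both pulses were given to 1 culture, and dose and culture run cannot be told apart. For 28 of 5372 genes (0.521%) limma called a difference, 7 with a higher value after 2 g/l (0.13%) and 21 with a lower one (0.391%), and 14 of the 21 are members of the iron response list. The counts were 22 and 36 with quantile normalization, 9 and 74 without the 0.2 g/l array of 45 min, and 11 higher without that of 90 min. HXT7 ran in opposite directions: after 0.2 g/l it was at 0.92, 0.73 and 0.79 late, against 3.31, 4.07, 4.22 and 4.40 in the middle window. The difference between the pulses was 6.25 ± 0.82 (SE, adjusted p = 0.000106). MTH1 (3.37, adjusted p = 0.00589) and HXK2, for the main hexokinase on glucose (1.97, adjusted p = 0.00109), shared this, HXK2 being at 0.62, 0.59 and 0.71 late after 2 g/l, against -0.39, -0.15, 0.06 and 0.38 in the middle window. YJL213W, an unnamed reading frame, was the fourth highest (1.60, adjusted p = 0.0313). Its call was lost without the 2 g/l arrays of 15, 45, 120 or 150 min or the 0.2 g/l arrays of 20, 30 or 90 min (adjusted p 0.0544 to 0.126). At the other end, FIT2 was at -3.05, -2.45 and -1.87 late after 0.2 g/l, against -3.52, -3.85, -4.00 and -3.99 in the middle window, so that it was going up there while it sank after 2 g/l (difference -4.13 ± 0.53, SE, adjusted p = 0.000106, but -2.90 with adjusted p = 0.169 under quantile normalization). ENB1 (-3.65, adjusted p = 2.06e-05), FRE1 (-3.47, adjusted p = 0.000639) and SIT1 (-2.90, adjusted p = 0.000106) were the other 3 of the lowest 4. Over the whole iron list the median after 0.2 g/l was 0.41, with 4 of 33 members higher and 1 lower (all genes: 1.27% higher and 0.633% lower, 1.9% in all), and the 1 lower was FIT3 (-0.94, adjusted p = 0.0389).

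No galactose gene differed between the pulses past the threshold. Limma called 0 of 9, with 1 at an unadjusted p under 0.05, GAL80 (1.12 ± 0.33, SE, adjusted p = 0.176). GAL10 differed by 1.60 ± 0.81 and GAL2 by 1.50 ± 1.10 (SE), GAL7 by 1.29, PGM2 by 1.08, GAL3 by 1.04, GAL1 by 1.03, GCY1 by 0.10 and GAL4 by -0.02, and the sign turned for GCY1 when single arrays were left out (-0.34 to 0.45) and for GAL4 also with quantile normalization (0.14). Leaving out single arrays gave 0.50 to 1.66 for GAL1, 0.68 to 2.22 for GAL2, 0.66 to 1.41 for GAL3, 0.71 to 1.94 for GAL7, 1.01 to 2.20 for GAL10 and 0.49 to 1.75 for PGM2. The lowest values of GAL1, GAL2, GAL3, GAL7 and GAL10 came without the 2 g/l array of 150 min, and that of PGM2 without the 0.2 g/l array of 45 min. A p-value above the threshold does not show that the pulses acted alike. After 0.2 g/l GAL2 was already at 0.37 and 0.36 at 30 and 45 min, while after 2 g/l it reached 0.10 at 150 min. The middle window after 0.2 g/l thus held both low arrays, such as that of 15 min (-2.80), and arrays above t=0. Among mitochondrial ribosomal proteins, chaperones, ribosome biogenesis genes and cytosolic ribosomal proteins limma called a difference between the pulses for 0 members. Over all genes 28 of 5372 were called (0.521%). At an unadjusted p under 0.05 the counts were 31 of 62, 6 of 28, 2 of 126 and 10 of 131 members, in that order and in either direction. The share of all genes at that p was not counted for this difference. These counts, and the 1 of 9 galactose genes, therefore cannot be set against it.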

How the data were processed

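The authors deposited 1 table of log2 ratios per spot for 26 two-colour arrays of total RNA; per the labels Cy5 held the time after the pulse and Cy3 t=0. The log base and the direction (Cy5 over Cy3) were inferred, and the sources used here name neither normalization nor image software. Of 10752 spots, 6834 were paired with 1 gene and 3918 with none. Assembly R64 held each of the 5606 identifiers and was used for names and gene order only. The mean over spots stands for a gene (in 247 of the 1165 with more than 1 spot, these differed by a median of over 0.5). Pulse and time in the labels gave 7 windows. A test needed 2 or more values per window, which left 5372 genes. limma 3.58.1 (R 4.3.3) fitted window means over all 26 arrays (lmFit, eBayes, two-sided, Benjamini-Hochberg over all genes, threshold 0.05), for late minus middle after 2 g/l and for its difference from the same contrast after 0.2 g/l. Tables and plots used Python 3.11.15, pandas 2.3.3, numpy 2.4.6 and matplotlib 3.10.9, and the fit was tested on simulated data. The number of arrays limits the precision.

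The comparison, its members and the gene lists were chosen with earlier results of these data known, and 8 further lists were written after the values were seen. Named genes are the 12 highest and 12 lowest called genes measured on all 7 arrays with no overlap between the windows, the measured members of galactose use, hexose transport and iron response, from every other list at most 4 called members, and for the difference between pulses the 4 highest and 4 lowest called. Genes outside this rule were picked after their values were seen: CDC123, MRP20, MRPL49, RML2, HSC82, SSC1, DBP2, NSR1 and those from the 8 further lists. Alternatives were the arrays in the fit, quantile normalization, median centring, the filter on missing values, genes with disagreeing spots, the variance model, a 2-fold minimum, leaving out each array and, added after seeing the data, pairing the pulses by time. No sequences are shown because the tables used here hold none.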

Additional observations from a re-analysis of the deposited data

Results flagged for a closer look

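In 4 of 81 genes examined 1 of the 4 middle arrays stood apart from the other 3 by Dixon's criterion. The 4 arrays are successive times and not replicates, so the share that chance alone would give is not known. MRPL39 read -1.50 at 20 min, with the other 3 arrays at -0.61. HSC82 read -0.83 at 20 min, with the others at -0.47 to -0.41. ATP11 read -0.69 at 15 min, with the others at -0.97 to -0.94, and INO1 read 0.024 at 15 min, with the others at -0.31 to -0.25. All 4 are higher in the late window, and every late array of each lies above all 4 middle arrays.

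For 8 named genes late minus middle differed between the pulses by limma's test of the difference itself (2 g/l minus 0.2 g/l, log2). It was 6.25 for HXT7, 3.37 for MTH1, 1.97 for HXK2 and 1.60 for YJL213W, and it was -4.13 for FIT2, -3.65 for ENB1, -3.47 for FRE1 and -2.90 for SIT1. By limma, FIT2 was not called with quantile normalization (adjusted p = 0.169). With arrays of the same time paired, MTH1 (0.0609) and YJL213W (0.124) were not called. The estimates after 2 g/l and after 0.2 g/l had opposite signs in each of the 8: HXT7 had 3.07 after 2 g/l and -3.19 after 0.2 g/l, and FIT2 had -2.74 after 2 g/l and 1.38 after 0.2 g/l. Dose and culture run cannot be told apart.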

How the results depend on the processing

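The counts depended most on which arrays entered. With only the 7 arrays in the fit, 636 genes were called (407 higher and 229 lower), with 8 higher of galactose use and 46 of mitochondrial ribosomal proteins. Quantile normalization gave 71 lower, and 58 (22 higher and 36 lower) for the difference between pulses. A minimum of 2-fold left 105 (85 higher and 20 lower), with 6 chaperones and 7 mitochondrial ribosomal proteins. Leaving out 1 array gave 50 to 221 in total (31 to 169 higher and 19 to 52 lower), 1 to 6 for galactose use, 2 to 10 for chaperones, 7 to 27 for mitochondrial ribosomal proteins, 12 to 18 lower for the iron response, and for the difference between pulses 22 to 83 (5 to 11 higher and 16 to 74 lower). For late minus middle the main fit called 229 genes in total. Fewer arrays thus went with more calls in the fit of only the 7 arrays (636) and with fewer when 1 array was left out (50 to 221). The cause of these shifts was not tested. Signs turned for the median of glycolysis (0.08, and -0.075 to 0.21 leaving out 1 array), with quantile normalization for those of hexose transport (-0.12), gluconeogenesis (-0.20) and amino acid biosynthesis (-0.15, but 0.03), and for the difference between pulses of GAL4 (-0.02, but 0.14 with quantile normalization and -0.21 to 0.10 leaving out 1 array) and of GCY1 (0.10, but -0.34 to 0.45 leaving out 1 array). Late and middle arrays share no time and were not paired. Between the pulses, arrays of the same time can be paired, a replicate block chosen after seeing the data: it called 11 genes (2 higher and 9 lower), 8 of them among the 28, and MTH1 (adjusted p = 0.0609) and YJL213W (0.124) were not called. Deviations from window means correlated at r = -0.03 to 0.33 within the 7 time pairs, over 0.1 in 2 and highest for the pair of 15 min. Whether arrays of the same time share more than the time cannot be told from these correlations or from the labels.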
